A study of Mus musculus with 6 samples.

Results

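The 37 transcripts encoded by the mitochondrial genome were followed in 6 RNA sequencing libraries of B16F10, a pigmented mouse melanoma cell line. They are all the genes of the expression table whose name starts with mt-, 37 of 51912 genes, and comprise 13 mRNAs, 2 ribosomal RNAs and 22 transfer RNAs. The labels give 3 wild-type libraries (WT, replicates 1, 2 and 3) and 3 libraries of the genotype ANXA10-/- (A10KO, replicates 1, 13 and 14), in which the gene for annexin A10, one of the proteins that bind membranes with calcium, was knocked out. By its title the series links this gene to PKD1, TRIM41 and metastasis of melanoma. The sources used here do not tell how the knockout was made or whether a number stands for a clone, a culture or a preparation. A p-value below thus reflects the spread among the 6 libraries, and that spread could be technical. All values are TPM, the usual abundance unit in which reads are divided by transcript length and scaled to a common library total. Levels of different genes can therefore be set side by side on that scale, but the depth of each library is unknown.

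The mitochondrial genome is a small circle read from both strands as long precursor RNAs. Transfer RNAs lie between most of the other genes, and cutting them out of the precursor releases the mRNAs and the ribosomal RNAs. The mRNAs encode core subunits of the respiratory chain and of ATP synthase, and all other subunits of these complexes come from nuclear genes. In melanoma cells, as in most cells that respire, mitochondrial mRNAs are among the most abundant polyadenylated RNAs. Complex I (NADH dehydrogenase) takes 7 of the mRNAs, complex III (cytochrome bc1) takes 1, complex IV (cytochrome c oxidase) takes 3, and complex V (ATP synthase) takes 2. The polymerase POLRMT transcribes the circle with the help of TFAM and TFB2M.

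The libraries had the profile of pigmented melanoma cells, with Tyrp1 between 2430 and 3815 TPM and Epcam, Tyrobp and Cd3e at 0 in all 6. The targeted gene gave no check of the labels, since Anxa10 was listed at 0 TPM in every library, WT included. Over the 12068 genes tested, the median log2 change was -0.04. A10KO replicate 13 stood apart from the other libraries in its mitochondrial share, 14.7% of total TPM against 6.32% to 7.93%. Some of the results that rest on it, but not all, are given without it as well.

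Several mitochondrial genes share sequence with each other or with the nuclear genome. The mRNAs for the ATP synthase subunits 8 and 6 lie on a single RNA and overlap. The same holds for the complex I subunits 4L and 4. The 4 stretches below are from the GENCODE M21 transcripts (GRCm38, plus strand, 5′ to 3′), and capitals mark the bases that both genes of a pair hold, 43 in the first pair and 7 in the second. They occupy chrM:7907-7969, chrM:7927-7989, chrM:10147-10173 and chrM:10167-10193.
mt-Atp8 end: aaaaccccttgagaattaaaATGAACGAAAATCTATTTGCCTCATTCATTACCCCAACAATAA
mt-Atp6 start: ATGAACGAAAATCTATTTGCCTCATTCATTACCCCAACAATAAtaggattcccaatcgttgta
mt-Nd4l end: caaaatctcaacctactacaATGCTAA
mt-Nd4 start: ATGCTAAaaattattcttccctcacta
A read that lies across such a border belongs to both genes. How the authors assigned these reads is not given in the sources used here.

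A block of 4663 bases on chromosome 1 (GRCm38, chr1:24611535-24616197, minus strand) holds 7 annotated unprocessed pseudogenes that match mitochondrial genes at 99% identity or more. Nuclear copies of this kind arise when mitochondrial DNA is inserted into a chromosome. Along the block the copies follow the order of the mitochondrial genes. Gm29216 matches the last 483 bases of mt-Co1, and Gm28661 matches mt-Co2 over 681 of 684 bases. Gm10925 matches mt-Atp6 over 678 of 681 bases, Gm28437 matches mt-Co3 over 783 of 784, and Gm28438 matches mt-Nd3 over 345 of 348. Gm10222 matches mt-Nd4l over 294 of 297 bases, and Gm28439 matches the first 876 of 1378 bases of mt-Nd4. In 5 of the 7 copies no base differed over the matched length. The other two each differed at 1 base, T3C between mt-Nd3 and Gm28438 and A1066T between mt-Co1 and Gm29216, with the mitochondrial base first and positions counted from the first base of the mitochondrial gene. The capital marks that base in each line below, taken from chrM:9459-9488, chr1:24613090-24613119, chrM:6390-6420 and chr1:24616158-24616188, the copies on the minus strand.
mt-Nd3: atTaacctgtacactgttatcttcattaat
Gm28438: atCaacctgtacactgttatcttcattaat
mt-Co1: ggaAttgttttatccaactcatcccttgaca
Gm29216: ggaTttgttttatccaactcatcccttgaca
Over the matched lengths, RNA of a gene and RNA of its copy have the same letters apart from these positions. A further 4 copies with 95% to 99% identity, on chromosomes 2 and 13, reached at most 0.56 TPM.

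In the deposited table several of the copies stood at the level of abundant mRNAs while the mitochondrial genes they match were at or near 0. The files do not tell from which locus this RNA came. mt-Atp6, for subunit 6 of ATP synthase, was listed at 0 TPM in all 6 libraries, whereas its copy Gm10925 stood at 7316, 6483 and 7241 TPM in WT replicates 1, 2 and 3 and at 8442, 8563 and 8048 in A10KO replicates 1, 13 and 14. mt-Co3, for subunit 3 of cytochrome c oxidase, was listed at 0.13 to 0.29 TPM, beside 4667 to 7897 for Gm28437. mt-Nd4l was listed at 0 in 5 libraries and at 238 TPM in A10KO replicate 14, beside 2887 to 4760 for Gm10222. A level of 0 for such a gene is therefore not read here as an absent transcript.

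For other genes both the mitochondrial row and the copy held a level. mt-Co2 held 1.16% to 2.52% of its joint level with Gm28661, and mt-Co1 held 68.1% to 86% of its joint level with Gm29216. For mt-Nd3 the mitochondrial share was 32.5%, 44% and 33.3% in WT and 35%, 38.1% and 45% in A10KO. mt-Nd4 kept all of its level, since Gm28439 was listed at 0 in every library. The split differed from library to library, so a single row of such a pair can differ between groups without a difference in their sum. Levels are therefore given below with the copy added to its gene where a copy exists, a choice made after the values were seen. For mt-Co1 and mt-Nd4 the copy covers only part of the gene, and the sum is then a sum of transcripts of unequal length. Reads truly from the nuclear block would be counted in these sums, and their number was not tested.

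**Figure D1:**
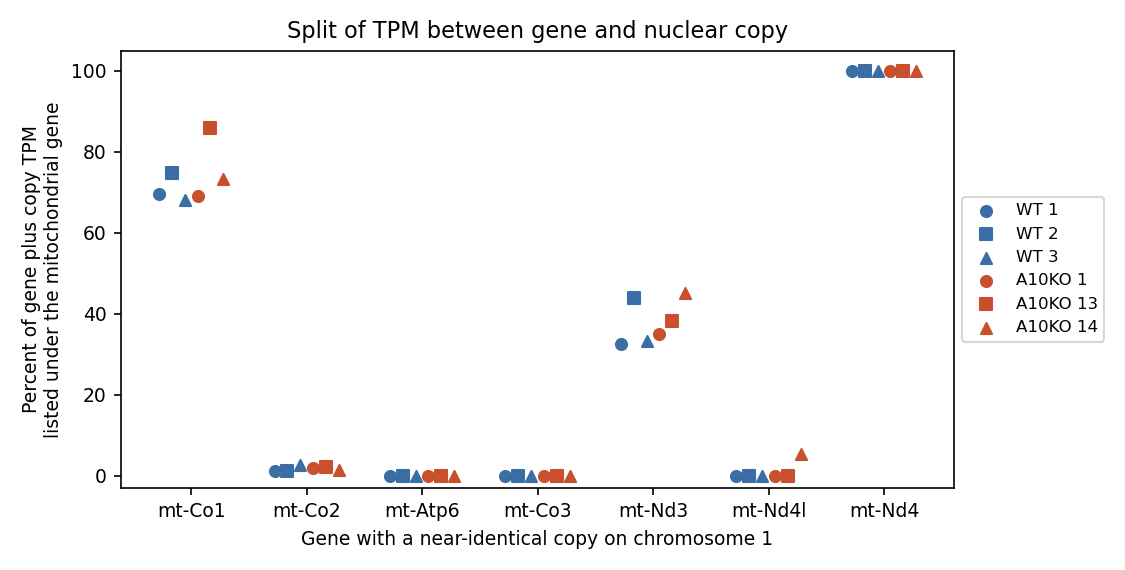
Percent of the summed TPM of a gene and its chromosome 1 copy that is listed under the mitochondrial gene (vertical axis), for the 7 genes with a copy, 1 point per library. mt-Atp6 and mt-Co3 lie at or near 0, mt-Co2 at 1.16% to 2.52%, mt-Nd3 between 32.5% and 45%, and mt-Nd4 at 100%.

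Complex I mRNAs were higher in every A10KO library than in every WT library for all 7 genes. Relative to the WT mean they stood at 1.33 to 1.74 in A10KO replicate 1, at 1.52 to 3.07 in replicate 13 and at 1.16 to 1.43 in replicate 14. mt-Nd3 (ENSMUSG00000064360, chrM:9459-9806), which encodes a membrane subunit of complex I, stood with its copy at 4253, 3260 and 4200 TPM in WT replicates 1, 2 and 3. Its levels in A10KO replicates 1, 13 and 14 were 6792, 9217 and 5583 TPM. The groups did not overlap, and the log2 change of 0.86 (SE 0.23, limma adjusted p = 0.357 over all genes) did not pass the threshold of 0.05. Read without the copy, mt-Nd3 had the tightest WT values of this complex after mt-Nd5, at 1406 ± 25.6 TPM, and 2802 ± 620 over the A10KO libraries (n = 3 each, SD). That log2 change was 0.97 (SE 0.18, limma adjusted p = 0.189), the lowest p of any mitochondrial gene in this fit.

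mt-Nd1 and mt-Nd2 encode membrane subunits and lie next after the ribosomal RNAs. mt-Nd1 (chrM:2751-3707) stood at 4839, 3417 and 4696 TPM in WT and at 6498, 12243 and 5722 in A10KO. Its A10KO mean of 8154 ± 3562 was 1.89 times the WT mean of 4317 ± 783 TPM (n = 3 each, SD). mt-Nd2 (chrM:3914-4951) stood at 2374, 1889 and 2323 TPM in WT and at 3329, 6736 and 2742 in A10KO. In both genes replicate 13 was far above the other two A10KO libraries, at 2.84 and 3.07 times the WT mean. Their log2 changes were 0.85 for each (limma adjusted p = 0.505 and 0.523).

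mt-Nd4 and mt-Nd4l, the overlapping pair, and mt-Nd5 encode further membrane subunits. With its copy, mt-Nd4l (chrM:9877-10173) stood at 3110, 3412 and 2887 TPM in WT and at 4187, 4760 and 4351 in A10KO. The A10KO libraries lay close together here, at 4433 ± 295 TPM (SD, n = 3), unlike the rest of the complex. mt-Nd4 (chrM:10167-11544) stood at 2362, 2055 and 2237 TPM in WT and at 3077, 4205 and 2734 in A10KO. The ratio of mt-Nd4l with its copy to mt-Nd4 was 1.42 ± 0.206 in WT and 1.36 ± 0.23 in A10KO (n = 3 each, SD), with overlapping groups. mt-Nd5 (chrM:11742-13565) stood at 1401, 1360 and 1398 TPM in WT and at 1847, 3415 and 1607 in A10KO.

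mt-Nd6 (chrM:13552-14070, minus strand) is the only mRNA on the other strand, and it overlaps the end of mt-Nd5 by 14 bases. It stood at 1531, 1336 and 1521 TPM in WT and at 2158, 3155 and 1753 in A10KO, a log2 change of 0.65 (SE 0.22, limma adjusted p = 0.483). The ratio of mt-Nd6 to mt-Nd5 was 1.05 ± 0.0624 in WT and 1.06 ± 0.125 in A10KO (n = 3 each, SD). The groups overlapped on this ratio. Whether the counting used the strand is not given in the sources used here.

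mt-Cytb (chrM:14145-15288), for cytochrome b of complex III, stood at 6084, 4847 and 5661 TPM in WT and at 7274, 10402 and 6527 in A10KO. The groups did not overlap, and the log2 change was 0.52 (SE 0.23, limma adjusted p = 0.563). Without A10KO replicate 13 it was 0.32.

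Complex IV mRNAs, in contrast to those of complex I, lay around their WT levels. mt-Co1 (chrM:5328-6872), for the catalytic subunit of cytochrome c oxidase, stood with its copy at 21966, 23863 and 22032 TPM in WT and at 23288, 25545 and 18068 in A10KO. mt-Co2 (chrM:7013-7696), for the subunit that receives electrons from cytochrome c, stood with its copy at 22644, 22198 and 22740 TPM in WT and at 24994, 27224 and 18821 in A10KO. In both genes replicate 13 was above and replicate 14 below the WT range, and the groups overlapped. mt-Co3 (chrM:8607-9390) stood with its copy at 6352, 4667 and 6508 TPM in WT and at 7897, 5485 and 5724 in A10KO. The log2 changes of the 3 genes were -0.03, 0.05 and 0.12 (SE 0.23, 0.24 and 0.22, limma adjusted p = 0.972, 0.961 and 0.892). Without A10KO replicate 13 they were -0.14, -0.05 and 0.22.

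The 2 complex V mRNAs, which share an RNA, were both higher in A10KO without overlap and differed from each other mainly in replicate 13. mt-Atp8 (ENSMUSG00000064356, chrM:7766-7969), for the small subunit 8, had the highest mean TPM of all 51912 genes. It stood at 27693, 27760 and 26556 TPM in WT and at 32967, 74021 and 33595 in A10KO, with the groups apart. mt-Atp6 (chrM:7927-8607), read from its copy, averaged 7013 ± 461 TPM over the WT libraries and 8351 ± 269 over the A10KO ones (n = 3 each, SD), also apart. The ratio of mt-Atp8 to mt-Atp6 was 3.79, 4.28 and 3.67 in WT, 3.90 and 4.17 in A10KO replicates 1 and 14 (inside the WT range), and 8.64 in replicate 13. mt-Atp8 is the shortest mRNA of the set, at 204 bases, and a TPM of so short a transcript rests on the length the authors divided by, which is not given in the sources used here. The log2 changes were 0.67 for mt-Atp8 (SE 0.36, limma adjusted p = 0.646) and 0.25 for mt-Atp6 (SE 0.17, adjusted p = 0.710). Without replicate 13 the value for mt-Atp8 was 0.28.

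**Figure D2:**
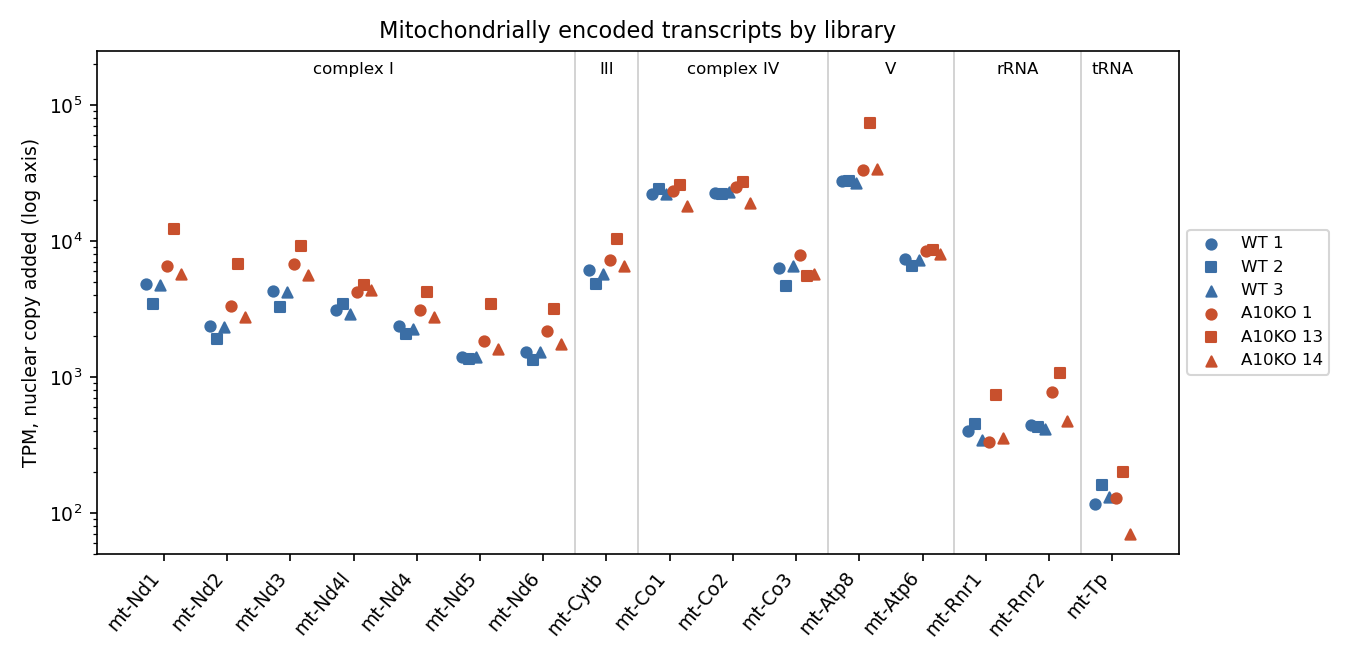
TPM on a log axis for the 13 mRNAs (nuclear copy added where there is one), the 2 ribosomal RNAs and mt-Tp, grouped by complex, 1 point per library, WT in blue and A10KO in orange. All 7 complex I genes have the A10KO points above the WT points, and the complex IV genes have them intermixed.

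The ribosomal RNAs were far below the mRNAs in TPM, and only 1 of the 2 differed without overlap. mt-Rnr2 (chrM:1094-2675), the RNA of the large mitochondrial ribosomal subunit, stood at 439, 428 and 411 TPM in WT and at 774, 1069 and 472 in A10KO, a log2 change of 0.78 that was 0.50 without replicate 13. mt-Rnr1 (chrM:70-1024), that of the small subunit, stood at 397, 450 and 344 TPM in WT and at 331, 739 and 354 in A10KO. Only replicate 13 lay above the WT range for mt-Rnr1, and without it the log2 change of 0.16 became -0.20. The ratio of mt-Rnr2 to mt-Rnr1 was 1.11, 0.949 and 1.20 in WT and 2.34, 1.45 and 1.33 in A10KO. The 13 mRNAs with copies summed to 121 to 146 times the TPM of the 2 ribosomal RNAs in WT and to 108 to 140 times in A10KO. Recovery of ribosomal RNA depends on how a library was made, and its part in these levels was not tested. The ratio is therefore not read here as that of the cells.

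Of the 22 transfer RNAs, 59 to 75 bases long, 21 were listed at 0 TPM in every library. The exception was mt-Tp, the transfer RNA for proline (chrM:15356-15422, minus strand), shown here with its anticodon in capitals as the only member of its class with a value.
mt-Tp: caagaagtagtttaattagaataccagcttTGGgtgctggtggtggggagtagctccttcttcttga
It stood at 117, 161 and 132 TPM in WT and at 128, 201 and 69.6 in A10KO, with overlapping groups (log2 change -0.16, SE 0.35, limma adjusted p = 0.917). Without A10KO replicate 14 the value was 0.24, and without replicate 13 it was -0.51. Transcripts this short are poorly recovered by standard libraries, and a value of 0 does not show that a transfer RNA was absent from the cells.

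As a share of total TPM, the 37 mitochondrial rows took 6.56%, 6.48% and 6.32% in WT and 7.93%, 14.7% and 7.37% in A10KO. The difference of the means was 3.54 percentage points, and 1.20 without replicate 13. The 7 nuclear copies took a further 4.98%, 4.54% and 4.94% in WT and 5.80%, 5.64% and 4.55% in A10KO. Together they made 11.3% ± 0.26 of total TPM in WT and 15.3% ± 4.41 in A10KO (n = 3 each, SD). The 3 A10KO values, 13.7%, 20.3% and 11.9%, all lay above the highest WT value of 11.5%. mt-Atp8 alone took 2.70% to 2.84% in WT and 3.38%, 7.63% and 3.45% in A10KO. With mt-Atp8 removed from both parts of the ratio, the joint share was 8.96%, 8.41% and 8.80% in WT and 10.7%, 13.7% and 8.78% in A10KO, and the groups overlapped. A higher share can come from more mitochondrial RNA or from less of all other RNA, and in bulk samples fewer cells of a kind and less RNA per cell cannot be told apart.

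**Figure D3:**
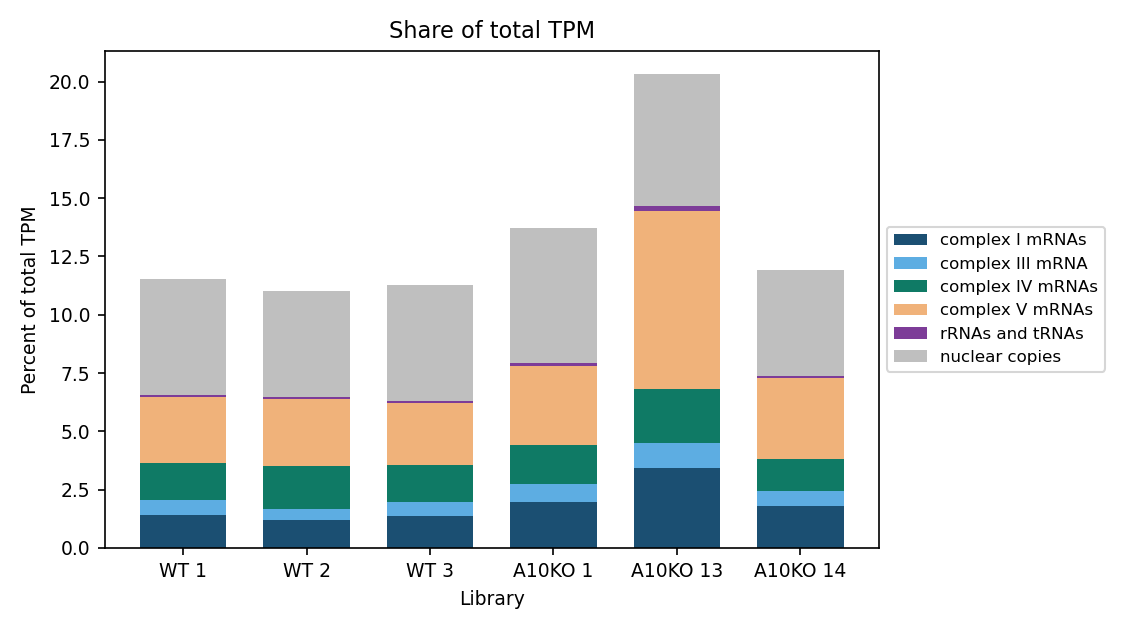
Percent of each library's total TPM (vertical axis) taken by mitochondrial mRNAs of each complex, by ribosomal and transfer RNAs, and by the nuclear copies, as stacked bars from 0. The full bars reach 11% to 11.5% in WT and 13.7%, 20.3% and 11.9% in A10KO replicates 1, 13 and 14.

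The makeup of the mitochondrial mRNA pool, was taken next, a measure that does not depend on the other nuclear RNA of a library. With copies added, complex I mRNAs held 17.8%, 15.7% and 17.5% of the pool in WT and 21%, 22.4% and 21.2% in A10KO. Complex IV mRNAs held 45.5%, 47.6% and 46.6% in WT and 42.3%, 29.9% and 37.0% in A10KO. For both complexes the groups were apart. All these shares are parts of the same total, so the differences are not independent of each other. In level, mt-Co1, mt-Co2 and mt-Co3 with copies had log2 changes of -0.03, 0.05 and 0.12. Complex III held 5.04% ± 0.452 in WT and 5.49% ± 0.164 in A10KO (n = 3 each, SD), with overlap. Complex V held 31.3%, 32.1% and 30.7% in WT and 31.2%, 42.4% and 36.1% in A10KO, also with overlap. Because mt-Atp8 weighs heavily on the pool, the shares were taken without it as well. Complex I then held 22.6% ± 1.24 in WT and 31.4% ± 4.27 in A10KO, and complex IV 62.1% ± 2.03 and 52.2% ± 4.07 (n = 3 each, SD), with the groups apart for both. Complex III was apart as well on that measure, at 6.72% ± 0.539 and 7.96% ± 0.656. With 3 libraries against 3, no two-sided exact permutation test of such a value can give a p below 0.1.

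**Figure D4:**
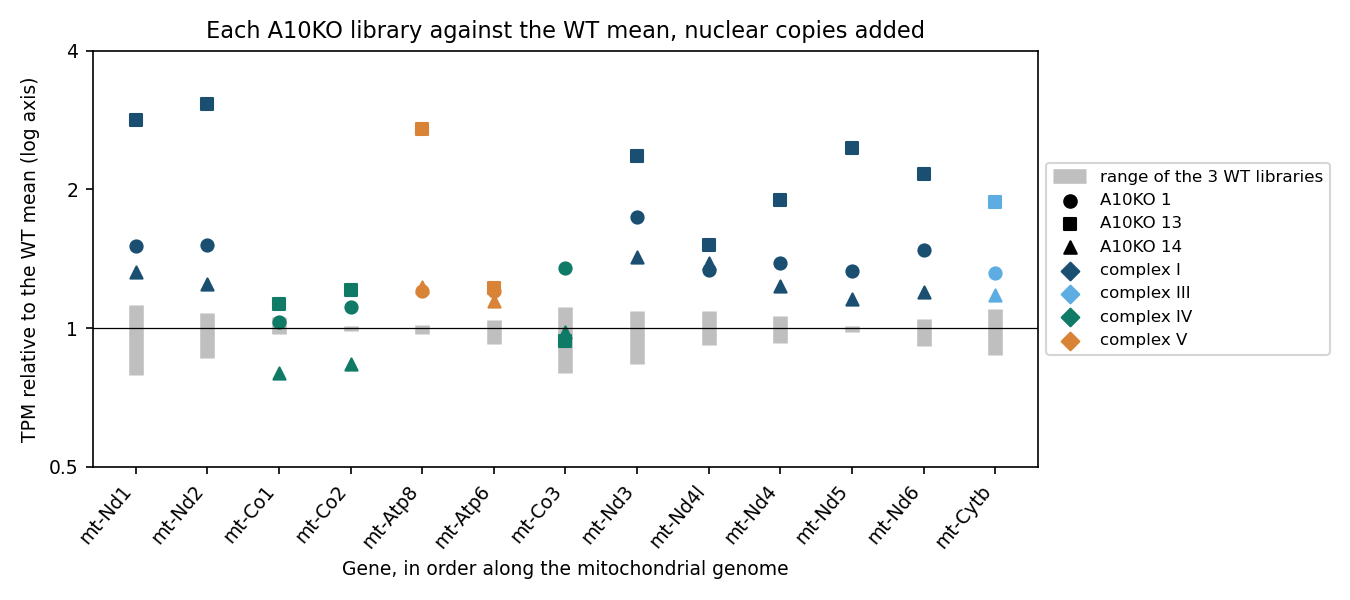
TPM of each of the 13 mRNAs (nuclear copy added) relative to its WT mean, on a log axis, in order along the mitochondrial genome, with 1 symbol per A10KO library and a grey bar for the range of the WT libraries. The 7 complex I genes lie above the WT bar in each library, the 3 complex IV genes lie on both sides of 1, and A10KO replicate 13 ranges from 0.939 for mt-Co3 to 3.07 for mt-Nd2.

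Position along the circle did not order these values in a simple way. mt-Nd1 and mt-Nd2, nearest the ribosomal RNAs, and mt-Nd5, mt-Nd6 and mt-Cytb at the far end were higher in all A10KO libraries, and so were mt-Atp8, mt-Atp6, mt-Nd3, mt-Nd4l and mt-Nd4 between them. The 3 cytochrome c oxidase genes lie in the same stretch, with ratios of 0.799 to 1.35. All 3 complex IV genes, with mt-Atp6, mt-Nd3 and mt-Nd4l, are those whose values rest in part or whole on the nuclear copies. The part of the copies in these ratios was not tested.

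A10KO replicate 13 had the highest ratios of the A10KO libraries for every mRNA except mt-Co3. Over the 13 mRNAs with copies its median log2 difference from the WT mean was 0.92, against 0.42 in replicate 1 and 0.26 in replicate 14. Its copies held 27.8% of the joint TPM of mitochondrial rows and copies, below the 38.2% to 43.9% of the other 5 libraries. Nuclear genes differed by length in this library as well. For 148 genes under 400 bases, the class of mt-Atp8, mt-Nd3 and mt-Nd4l, its median log2 difference from the WT mean was -0.13, against 0.07 in replicate 1 and 0.31 in replicate 14. The medians were -0.31 for 491 genes of 400 to 800 bases and 0.17 for 6058 genes of 3200 bases or more, against -0.08 and -0.14 in replicate 1 and 0.04 and -0.03 in replicate 14. The part of this length pattern in the mitochondrial values was not tested. Ppargc1a, which encodes a coactivator known to promote mitochondrial biogenesis, stood at 117 TPM in replicate 13, at 14.3 and 10.2 in replicates 1 and 14, and at 16.1, 25.7 and 17.7 in WT. Its part in the mitochondrial values was not tested either. In the fits without replicate 13, the complex I genes with copies kept log2 changes of 0.31 (mt-Nd5) to 0.67 (mt-Nd3).

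No mitochondrial gene was called when the whole table was tested. Of the 37 genes, 13 passed the filter of at least 1 TPM in at least 3 libraries, and 0 of them reached an adjusted p under 0.05 in limma, where 0.0414% of the 12068 genes tested did. At an unadjusted p under 0.05, 7 of the 13 were higher and 0 lower, where 2.56% of all genes were higher and 6.27% lower. Groups did not overlap for 9 of the 13, all higher in A10KO, where 5.61% of all genes were higher and 11.5% lower without overlap. The genes that did not pass were mt-Co3, mt-Nd4l and the 22 at 0 in every library, which are mt-Atp6 and 21 transfer RNAs. After the copies were added, all 13 mRNAs passed the filter, and 10 of them were higher without overlap, where 5.60% of all genes were. All 7 complex I genes, and none of the other 6 mRNAs, were then higher at an unadjusted p under 0.05, where 2.55% of all genes were. This split depends on the cutoff. In limma mt-Nd5 of complex I lay just inside it (unadjusted p = 0.0476) and mt-Cytb of complex III just outside (unadjusted p = 0.0512). mt-Atp8 of complex V, with a log2 change of 0.67, had an unadjusted p of 0.103. The median log2 change of the 13 mRNAs with copies was 0.57, with 0.65 for complex I and 0.05 for complex IV. The 138 other genes whose mean reached 1000 TPM had a median of -0.18. These genes share precursor RNAs and a library total, so their number does not count independent events. With copies apart, the count of 7 at an unadjusted p under 0.05, mt-Rnr2 included, was 1 without WT replicate 2, 3 without WT replicate 3 and 3 with no filter. With copies added the count was 8, again with mt-Rnr2, and it was 2 without WT replicate 2, 3 without WT replicate 3 and 10 without A10KO replicate 13.

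Nuclear genes for subunits of the same complexes lay near the median of all genes. Of 76 nuclear subunit genes tested, 0 were called, the median log2 change was -0.06, and 1 was higher and 10 were lower without overlap. The corresponding shares are 1.32% and 13.2%, where 5.61% and 11.5% of all genes were. The 36 nuclear complex I genes had a median of -0.11, with 0 of them higher and 6 lower (16.7%) without overlap. Ndufa12, an accessory subunit of complex I, averaged 531 ± 18.6 TPM over the WT libraries and 606 ± 125 over the A10KO ones (n = 3 each, SD). Ndufa4, a subunit found with complex IV, was the 1 gene higher without overlap, at 1630 ± 31.4 TPM over WT and 1893 ± 225 over A10KO (limma adjusted p = 0.718). Uqcr10, a subunit of complex III, was among the 10 lower without overlap. It averaged 1478 ± 55.5 TPM over WT and 1316 ± 98.2 over A10KO (limma adjusted p = 0.748). Atp5b, the catalytic subunit of ATP synthase, averaged 3393 ± 138 TPM over WT and 3949 ± 1175 over A10KO. The median log2 level of the 13 mitochondrial mRNAs with copies exceeded that of the nuclear subunit genes by 3.74, 3.21 and 3.66 in WT and by 4.05, 4.67 and 4.06 in A10KO. The groups were apart on this difference within a library.

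Genes that transcribe, copy and process mitochondrial nucleic acids lay near the median of all genes, and paired means below give WT first and A10KO second. Of 11 genes for mitochondrial transcription 0 were called, with a median log2 change of -0.01. Of these 11, 0 were higher and 1 was lower (9.09%) without overlap, where 5.61% and 11.5% of all genes were. Polrmt, the polymerase, stood at 33.5, 37.0 and 36.2 TPM in WT and at 37.4, 28.5 and 26.2 in A10KO. The 11 replication genes had a median of -0.03, and Polg, the catalytic subunit of the mitochondrial DNA polymerase, was at 39.1 ± 3.13 and 39.8 ± 3.44 TPM (n = 3 each, SD). The 18 genes for RNA processing and stability had a median of 0.01, and Tbrg4, a protein of the FASTK family of mitochondrial RNA regulators, was at 104 ± 12.9 and 119 ± 18.4 TPM. Of 76 mitochondrial ribosomal protein genes, 0 were called and the median was -0.04, with 1 higher (1.32%) and 8 lower (10.5%) without overlap, where 5.61% and 11.5% of all genes were. The 1 higher was Mrpl19, at 25.2 ± 1.11 and 29.7 ± 1.46 TPM.

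Regulators of mitochondrial biogenesis and stress genes were read in the same way, WT mean first. Among 9 biogenesis regulators 0 were called, 2 were higher without overlap (22.2%, where 5.61% of all genes were), and the median was 0.10. These 2, named after their values were seen as were Mrpl19 above and Asns below, were Pprc1 and Ppargc1b, both relatives of Ppargc1a. Genes lower without overlap in the nuclear gene lists were not picked out in this way. Pprc1 stood at 30.7, 20.6 and 26.5 TPM in WT and at 30.8, 41.7 and 42.1 in A10KO (log2 change 0.55, limma adjusted p = 0.502). Ppargc1b lay between 2.85 and 3.54 TPM throughout, with its highest WT value at 3.31 and its lowest A10KO value at 3.34. Its log2 change was 0.10 (limma adjusted p = 0.887). Esrra, a nuclear receptor that works with the product of Ppargc1a, was at 83.5 ± 7.87 and 89.5 ± 27.6 TPM (n = 3 each, SD). Of 17 genes of the mitochondrial stress response 0 were called and the median was 0.04, with Hspd1, the mitochondrial chaperonin, at 825 ± 20.7 and 867 ± 281 TPM. The 1 gene of that list higher without overlap (5.88%, where 5.61% of all genes were) was Asns, for asparagine synthetase, at 133 ± 24.3 and 178 ± 15.7 TPM (limma adjusted p = 0.502). Of 9 genes for mitophagy and mitochondrial shape 0 were called, with a median of -0.09. Of these 9, 0 were higher and 1 was lower (11.1%) without overlap, where 5.61% and 11.5% of all genes were. Bnip3, a mitophagy receptor, stood at 256 TPM in WT replicate 2 and between 51.2 and 110 in the other 5 libraries.

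**Figure D5:**
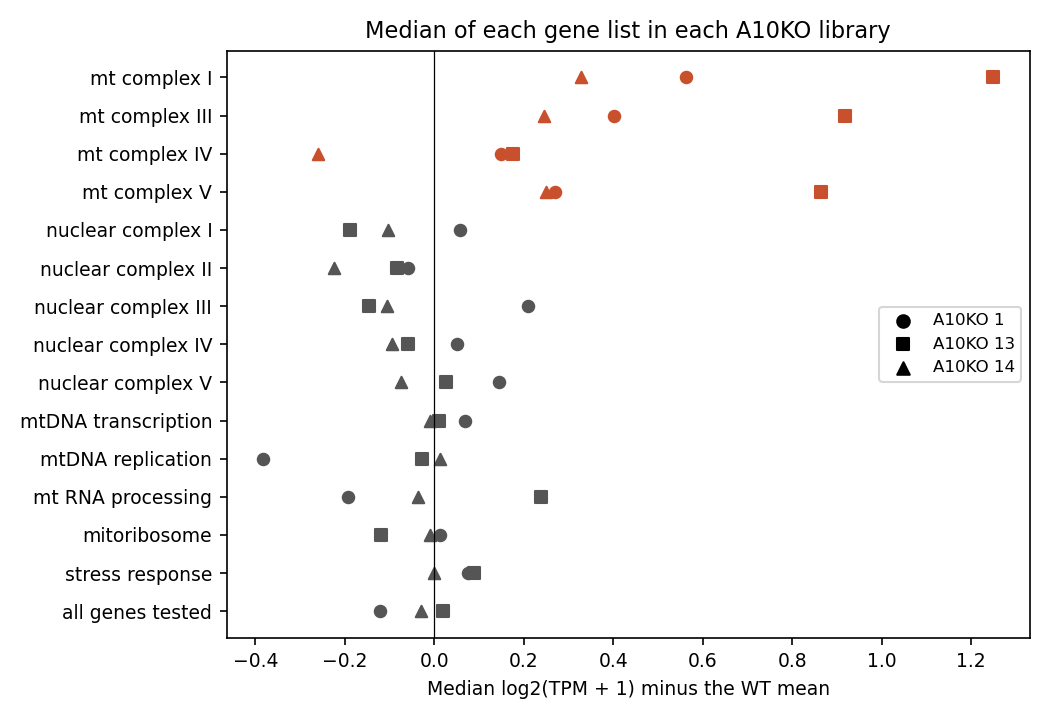
Median difference of log2(TPM + 1) from the WT mean (horizontal axis) for the mitochondrial mRNAs of each complex with copies added (orange) and for nuclear gene lists (grey), 1 symbol per A10KO library. Mitochondrial complex I lies at 0.33 to 1.25 and the nuclear lists drawn lie between -0.38 and 0.24. Several lists not drawn lay partly outside that range. The biogenesis regulators had medians of -0.22, 0.41 and 0.09 in A10KO replicates 1, 13 and 14. In the same order, RNAs that lack a long poly(A) tail had -0.26, -0.53 and -0.54. RNAs retained in the nucleus had -0.41, -0.04 and -0.33, and pigment cell genes had -0.11, -0.04 and 0.32.

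Levels of RNAs that lack a long poly(A) tail depend in part on how a library was made. Other influences on them were not tested. The 20 genes listed for this, mostly histones and small structural RNAs, summed to 857, 784 and 276 TPM in WT and to 497, 444 and 455 in A10KO. Of the 12 tested, 0 were called, and the median log2 change was -0.29. At an unadjusted p under 0.05 in limma, 4 of the 12 were lower and 0 higher, where 6.27% and 2.56% of all genes were. Rn7s1 and Rn7s2 had the same values in every library, 250, 254 and 85.1 TPM in WT and 186, 121 and 186 in A10KO, and both enter the sums. Among the 15 markers of other cell types, the summed level was 2.63 to 4.03 TPM in WT and 1.11 to 2.42 in A10KO, and 3 were at 0 in every library. Only 1 of them passed the filter, Col1a1, at 1.93, 2.42 and 2.46 TPM in WT and 0.62, 1.60 and 0.32 in A10KO (limma adjusted p = 0.471). The sums thus rest on levels near the floor and are not read as a difference in cell types.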

How the data were processed

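Per the labels' protocols, Trizol extraction and DNase I preceded library preparation. The submitters' processing notes name fastp, HISAT, RSEM and GRCm38.p5, without versions, roles, annotation or strand setting. The authors deposited TPM, in a table presented as raw counts whose columns sum to between 969834 and 985045. The 6 single-library tables were identical to it. Depth is unknown, so no counting interval is given.

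The main test was limma 3.58.1 (R 4.3.3) with a mean-variance trend on log2(TPM + 1), A10KO minus WT, for the 12068 genes that reached 1 TPM in 3 or more libraries, with Benjamini-Hochberg adjustment over all of them and a threshold of 0.05. Log2 changes on this scale understate the change of low genes. On simulated data for A10KO with WT (12068 genes), 58.2% of genes changed 2-fold, 88.1% changed 4-fold and 98.5% changed 8-fold were recovered, and 8 unchanged genes were called. The changed genes were drawn only from genes above a set mean level, so the rates do not cover low genes. The simulated spread was the same in both groups, unlike the real one. Within A10KO, the median SD as a percent of the mean was 40.3% for the tested members and 22.4% for all genes tested. The rates are thus not those of the mitochondrial genes.

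Nuclear copies were found with blastn 2.17.0 against the GENCODE M21 transcripts (GRCm38), at 200 or more aligned bases and 99% identity, and their TPM was added to the gene they match. All 37 genes had coordinates there. Changes with copies added come from a refit of the whole table (12065 genes).

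The members, gene lists and tests were chosen with earlier results of these data known. By the rule for naming, every mRNA and ribosomal RNA is named, with transfer RNAs and copies that reach 1 TPM in 3 libraries, and from each list the called genes or the 2 with the highest mean. Not all of the latter are printed. Alternatives were other scalings, filters, weights and pseudocounts and the omission of each library.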

Additional observations from a re-analysis of the deposited data

How the results depend on the processing

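No paired analysis was possible because the labels state no pairing of WT with A10KO libraries. With array quality weights, which weight A10KO replicate 13 least, 1 mitochondrial gene was called and 25 genes over the whole table. The gene was mt-Nd3 without its copy (limma adjusted p = 0.0359), and these weights were not fitted with copies added. In every other alternative 0 mitochondrial genes were called. The whole-table count of 5 was 3 under quantile normalization, and leaving out 1 library gave 2 to 8, with copies apart or added. The complex III share of the mRNA pool, -0.155 percentage points in A10KO minus WT with copies apart, was 0.449 with copies added, and from -0.700 to 0.499 on leaving out 1 library. The difference in the share of total TPM, 3.54 percentage points, was 1.20 without A10KO replicate 13, 4.85 without replicate 14, 1.70 without mt-Atp8 and 4.05 with copies added. The median log2 change of the tested members, 0.64, was 0.32 without A10KO replicate 13 and 0.40 with array weights. mt-Atp8 came to 0 under quantile normalization, being the highest gene in every library. No scaling moved the median of all genes by more than 0.0611. With copies apart, mt-Co1 changed sign in 3 alternatives (-0.13 without A10KO replicate 13) and mt-Co2 in 1 (-0.44 with array weights). The addition of copies, the removal of mt-Atp8 and the complex shares without each library were chosen after seeing the data. Unknown depth limits the low values.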
